A study of Mus musculus with 124 samples.

Results

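The daily rhythm of liver gene expression was compared between the second recovery day after sleep deprivation and undisturbed control mice, over all 13338 named genes of the liver table. The comparison rests on 35 of the 124 libraries of the study, those of liver taken at the 4 times of day that both arms share. The deprived arm held 12 mice, 3 each at T48, T54, T60 and T66 (hours on the clock of the experiment, with T0 at lights-on of the baseline day). Gentle handling had kept them from sleeping during the first 6 h of the next light phase, T24 to T30. They were therefore killed 18, 24, 30 and 36 h after deprivation had ended. On the scale of zeitgeber time (ZT), which is counted in hours since lights-on, these are ZT0, ZT6, ZT12 and ZT18. The control arm held 23 mice that were not deprived, 8 at ZT0 (taken at T0 or T24) and 5 each at ZT6, ZT12 and ZT18 of the baseline day. All mice were 11 to 12 weeks old, had food at all times and a 12 h light phase followed by a 12 h dark phase. Strain, sex and genotype were not named in the labels. Each mouse gave 1 liver library at 1 time, so a rhythm is seen between mice and not within a mouse. Expression is given as log2 CPM, in which the reads of a gene are set against all reads of its library. Because liver was sequenced whole, fewer cells of a type and less RNA per cell cannot be told apart. Markers of hepatocytes, 10 of 10 measured, summed to 108000 to 129000 CPM on day 2 and to 107000 to 145000 CPM in controls. Macrophage markers, 10 of 10 measured, summed to 276 to 550 CPM on day 2 and to 128 to 584 CPM in controls, and only 1 of 7 neutrophil markers was in the table.

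The labels split the libraries into batch 1 and batch 2, which the labels do not define further. On day 2 all livers of T48 and T54 were in batch 1 and all of T60 and T66 in batch 2, whereas controls of every time were in both (4 and 4 at ZT0, 3 and 2 at each of the other times). Batch was therefore a term of the fit. Patterns along the line from early day to early night are also given without that term, or with same-batch controls only, that is, controls of the batch in which the deprived mice of that time were. No rhythm can be measured within a single batch on day 2, since neither batch holds all 4 times.

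The mammalian clock is a feedback loop in which the activators BMAL1 (gene Arntl), CLOCK and NPAS2 drive the genes of their own repressors, the PER and CRY proteins, from DNA elements called E-boxes. A second loop of REV-ERB repressors (Nr1d1, Nr1d2) and ROR activators sets the rhythm of Arntl, and the PAR bZIP factors DBP, TEF and HLF with their antagonist NFIL3 pass the rhythm on through D-boxes. In the liver the clock and the daily meals together time the transcription of metabolic genes.

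The 3 elements can be seen in promoters of clock genes whose rhythm is described below. Stretches from the RefSeq promoter table (build GRCm38.p6, 250 bases before to 50 after the start of a gene, read along the gene's strand) are shown with the element in capitals: an E-box (CACGTG) in Ciart, Cry1 and Tef, a D-box (TTATGTAA) in Per3 and the core of a ROR element (TAGGTCA, here as its reverse complement) in Nfil3. They are shown because the rhythms of these genes are given one by one below: Ciart, Tef and Per3 peak late in the light phase, and Cry1 and Nfil3 in the dark phase.
Ciart, chr3:95882252-95882359, minus strand: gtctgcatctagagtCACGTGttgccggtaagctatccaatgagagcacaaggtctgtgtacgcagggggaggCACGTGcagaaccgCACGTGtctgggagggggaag
Cry1, chr10:85185094-85185129, minus strand: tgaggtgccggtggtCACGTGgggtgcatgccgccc
Tef, chr15:81802531-81802566, plus strand: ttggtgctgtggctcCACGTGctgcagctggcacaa
Per3, chr4:151044801-151044885, minus strand: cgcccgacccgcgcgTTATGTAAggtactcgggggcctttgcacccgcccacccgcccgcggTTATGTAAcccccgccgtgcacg
Nfil3, chr13:52981040-52981066, minus strand: cgcggcgctcggaacTGACCTActaac
Searched on both strands, an E-box stood in the window of 11.8% of the 10099 measured genes with a promoter entry, a D-box in 0.723% and the ROR core in 2.53%. Among 101 strongly rhythmic genes with an entry that peaked at ZT9 to 12 in controls, 21 (20.8%) held an E-box and 3 (2.97%) a D-box. The E-box share was not particular to that window: it was 22.9% (16 of 70) at ZT3 to 6 and 18.2% (14 of 77) at ZT6 to 9. Among 168 that peaked at ZT21 to 24, 11 (6.55%) held the ROR core and 16 (9.52%) an E-box. A match is a description of letters and no evidence of binding, and 17 of the 22 measured clock genes had an entry.

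A rhythm was measured by 2 components, ZT0 minus ZT12 and ZT6 minus ZT18. The amplitude is 0.5 times the length of the pair in log2 units, and the peak time is its angle in hours. In controls 6024 of 13338 genes (45.2%) were rhythmic by limma's F test with Benjamini-Hochberg adjustment, and 1100 of them were strongly rhythmic, with an amplitude of at least 0.5 (a swing of 1 log2 unit between peak and trough). The nearest genes on either side of that line were Gclc, at 0.5003, and Igf2bp2, at 0.4995. On day 2, with 12 libraries and not 23, 2659 genes (19.9%) were rhythmic and 863 strongly so. The 2317 genes called in both arms were 87.1% of those called on day 2 and 38.5% of those called in controls. Of the 1100 genes strongly rhythmic in controls, 681 (61.9%) were called rhythmic on day 2.

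No gene passed the test of a changed rhythm between day 2 and controls: 0 of 13338 (0%) by limma's F test, with a lowest adjusted p of 0.452. At an unadjusted p under 0.05 there were 910 genes (6.82%), where about 667 would come without any change, and 141 of the 1100 strongly rhythmic genes (12.8%). Amplitude alone, tested along the direction of each control rhythm, gave 0 of the 1100 genes (lowest adjusted p over all genes 0.21), and peak time alone gave 0 (lowest 0.831). At an unadjusted p under 0.05, amplitude was lower on day 2 in 150 of the 1100 genes and higher in 12, against 1065 (7.98%) and 78 (0.585%) of all genes. That excess of lower values is in part built in, because the controls both chose the genes and set the direction. Peak time had an unadjusted p under 0.05 in 78 of the 1100 (7.09%), against 616 of all genes (4.62%). Rapgefl1, which had the lowest p and encodes a protein like guanine nucleotide exchange factors, was called without the batch term (adjusted p = 0.0279) or without the ZT0 control T0N5 (0.0482). Its amplitudes were close, 0.657 on day 2 and 0.577 in controls, while without the batch term it peaked at ZT12.5 and ZT1.59. Its levels were low, −2.26 to −0.10 log2 CPM.

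The data bound what could have gone unseen. The standard error of an amplitude difference was 0.217 in the middle of the 1100 genes (0.112 and 0.381 at the 10th and 90th percentiles). The 95% interval of the day 2 amplitude stayed above 0.5 times the control amplitude in 318 genes (28.9%), above 0 in 727, and below 1.5 times in 733. For most rhythmic genes, then, a loss of 0.5 times the amplitude was not detectable with 3 deprived mice at each time.

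The core clock kept its rhythm within these bounds. Of 22 measured clock genes 16 were strongly rhythmic in controls, all 16 were called rhythmic on day 2, and for 15 of them the interval stayed above 0.5 times the control amplitude; Per2 was the exception. Their median amplitude was 1.77 on day 2 and 1.87 in controls, 10 were lower and 6 higher on day 2, and the ratio ran between 0.761 (Per2) and 1.35 (Bhlhe40). None of the 22 had an unadjusted p under 0.05 for a changed rhythm, and the lowest adjusted p was 0.825. Over all genes, for comparison, the median amplitude was 0.182 on day 2 and 0.177 in controls. Noise raises such small amplitudes, more so in the arm with fewer mice.

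**Figure D1:**
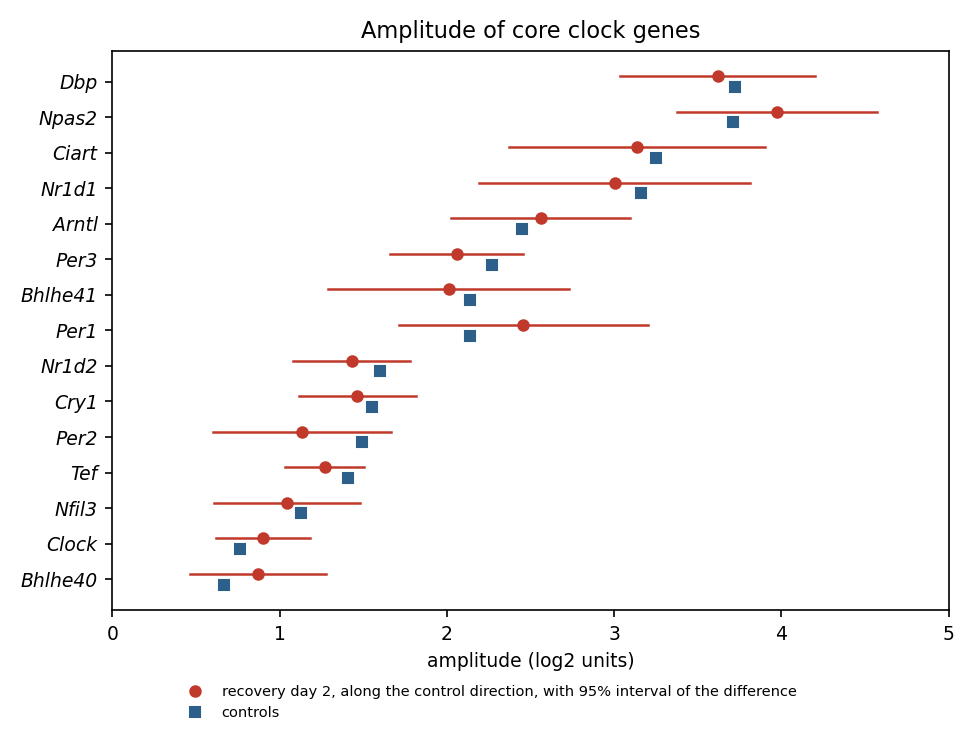
Amplitude of core clock genes that were strongly rhythmic in controls, in log2 units. Red circles give recovery day 2 (measured along the direction of the control rhythm) with the 95% interval of the difference from controls, and blue squares give controls. Every interval holds the control value, and the widest are those of Nr1d1, Ciart and Per1.

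Among the activators, Arntl (chromosome 7, 113207465 to 113314126, plus strand) read 5.32, 5.12 and 5.42 log2 CPM at T48, 2.27, 2.56 and 0.88 at T54, 1.44, 0.74 and 1.94 at T60, and 5.17, 5.06 and 5.10 at T66. In controls its lowest, median and highest values were 5.08, 5.54 and 5.67 at ZT0, 1.28, 1.94 and 3.76 at ZT6, −0.26, 1.4 and 2.42 at ZT12, and 4.80, 4.85 and 5.32 at ZT18. The 2 arms overlapped at all 4 times, with high levels at ZT18 and ZT0 and low levels between. Its amplitude was 2.56 on day 2 and 2.45 in controls (difference 0.11 ± 0.27, SE), and it peaked at ZT21.7 and ZT21.8. Npas2, which can stand in for CLOCK, had an amplitude of 3.97 on day 2 and 3.71 in controls and peaked at ZT23.4 and ZT23.5. Its lowest value, −4.51 log2 CPM, recurred in 2 day 2 and 3 control libraries, so the depth of its trough is bounded by that repeated value. Clock swung less, with 0.901 on day 2 and 0.761 in controls.

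Of the repressors, Per2 (chromosome 1, 91415982 to 91459324, minus strand) had the lowest ratio of amplitudes, 0.761, without passing the test (adjusted p = 0.90). Its levels were 4.53, 4.47 and 5 log2 CPM at T48, 4.74, 4.81 and 6.45 at T54, 6.15, 6.62 and 6.47 at T60, and 6.54, 6.60 and 6.07 at T66. Controls had 3.68, 3.90 and 4.36 (lowest, median, highest) at ZT0, 4.04, 4.84 and 5.42 at ZT6, 6.30, 6.42 and 6.72 at ZT12, and 5.84, 6.45 and 6.85 at ZT18. All 3 livers at T48 lay above all 8 controls of ZT0, T54S4 alone lay above the ZT6 controls, and the groups overlapped at both dark phase times. The amplitude was 1.14 on day 2 and 1.49 in controls (difference −0.36 ± 0.27, SE; interval 0.404 to 1.12 times the control), with peaks at ZT14.2 and ZT14.3. Per3, whose promoter holds the pair of D-boxes shown above, had the same arrangement at its trough: 2.27, 2.10 and 1.92 log2 CPM at T48, against 0.90, 1.2 and 1.62 (lowest, median, highest) at ZT0 in controls, a non-overlap that did not pass the test for that time (log2 difference 0.73 ± 0.26, SE, adjusted p = 0.354). Its amplitude was 2.05 on day 2 and 2.27 in controls.

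None of the other repressors passed the test either. Per1 had an amplitude of 2.46 on day 2 and 2.14 in controls, and Cry1, with an E-box in its promoter, 1.48 and 1.55. Cry1 peaked at ZT18.0 on day 2 and ZT18.6 in controls, which is later than the Per genes. Ciart, a repressor of CLOCK and BMAL1 with 3 E-boxes in the stretch above, had 3.18 on day 2 and 3.25 in controls, an 81.9-fold and a 90.5-fold swing between peak and trough. Bhlhe41 and Bhlhe40, which compete for E-boxes, had 2.11 and 0.902 on day 2, against 2.14 and 0.67 in controls. Cry2, below the line for strong rhythms, had 0.473 and 0.488.

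In the second loop, Nr1d1 (chromosome 11, 98767932 to 98775333, minus strand) had an amplitude of 3.05 on day 2 and 3.16 in controls, and peaked at ZT6.01 and ZT6.70. Its ZT6 level was 7.06, 7.36 and 6.64 log2 CPM on day 2 and 7.32 ± 0.26 in controls (SD, n = 5), while at ZT0 both arms were spread, with 3.67, 5.38 and 4.60 on day 2 and 3.36 ± 1.29 in controls (SD, n = 8). Nr1d2 had 1.43 on day 2 and 1.60 in controls. Rora, a ROR activator, had amplitudes of 0.181 on day 2 and 0.108 in controls and was called rhythmic in neither arm, nor were Csnk1d and Csnk1e, kinases of the PER proteins.

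Among the output factors, Dbp (chromosome 7, 45705088 to 45710203, plus strand) read −0.31, 0.54 and 0.02 log2 CPM at T48, 6.43, 6.22 and 6.62 at T54, 5.64, 5.44 and 5.34 at T60, and 1.94, 1.85 and 1.32 at T66. Controls had −1.81, −0.49 and 0.55 (lowest, median, highest) at ZT0, 5.89, 6.54 and 6.92 at ZT6, 4.54, 5.48 and 6.17 at ZT12, and 1.06, 1.98 and 2.47 at ZT18. Every day 2 value lay within the control range of its time of day. The amplitude was 3.62 on day 2 and 3.72 in controls (difference −0.10 ± 0.29, SE), a 150-fold and a 173-fold swing. Tef had 1.27 on day 2 and 1.41 in controls, Hlf 0.362 and 0.42, and their antagonist Nfil3, with the ROR core in its promoter, 1.05 and 1.13, peaking at ZT21.5 and ZT21.1.

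**Figure D2:**
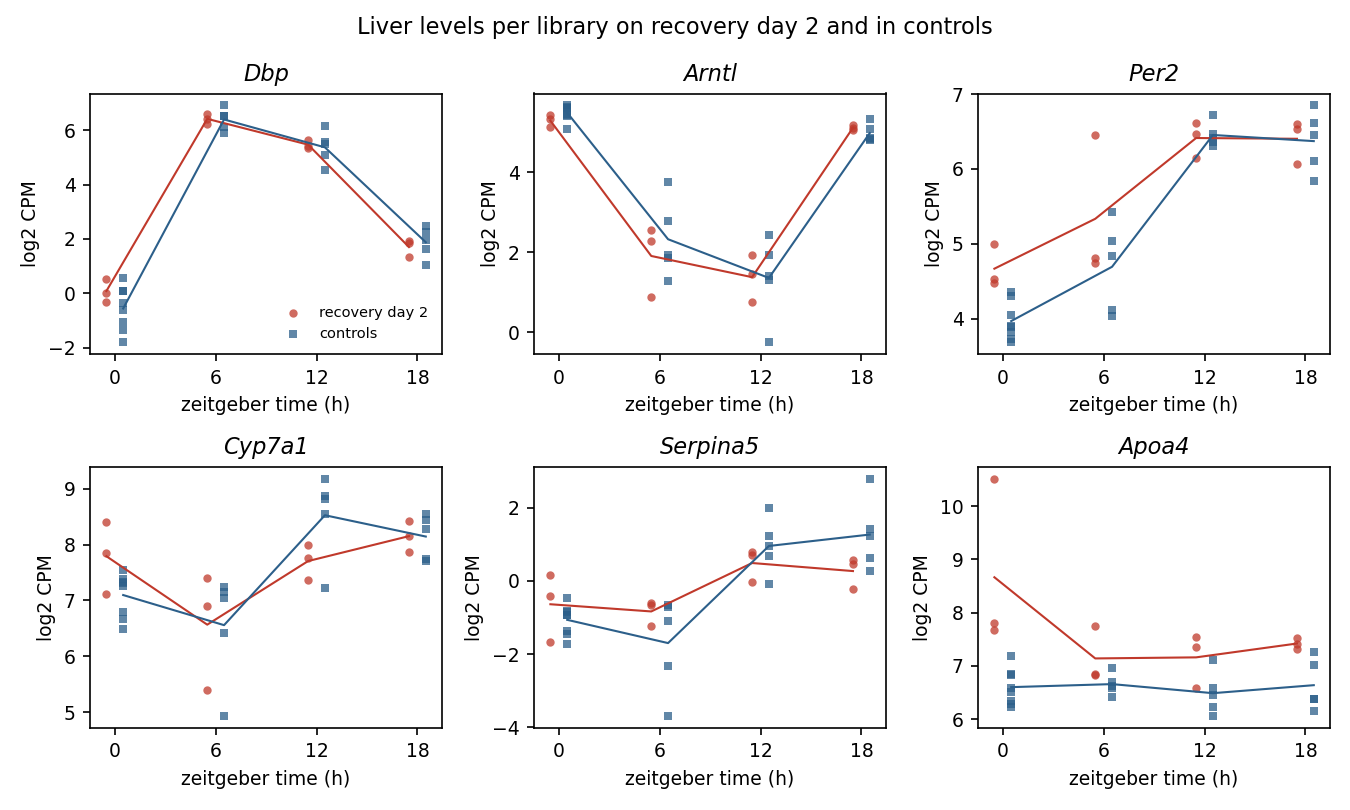
Log2 CPM of 6 genes in every liver library against zeitgeber time in hours, with recovery day 2 as red circles (n = 3 at each time) and controls as blue squares (n = 8 at ZT0 and 5 at each other time), and lines through the group means. Dbp and Arntl overlap at every time, Per2 lies higher at ZT0 on day 2, Serpina5 has a flatter course on day 2, and T48S4 stands apart for Apoa4 at 10.51.

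The largest swings of the liver also recurred outside the clock list. Of the 20 named genes with the largest control amplitude (at least 1.97), 8 were core clock genes. Of the other 12, 11 were called rhythmic on day 2, and their median log2 ratio of amplitudes was −0.10 (8 lower on day 2). Rgs16, a brake on G protein signalling, had 3.71 on day 2 and 3.99 in controls. Elovl3, which elongates fatty acids, had 2.67 and 2.49, Usp2, a deubiquitinase, 2.42 and 2.24, Lpin1, a phosphatidate phosphatase, 2.19 and 2.34, and Slc34a2, a phosphate transporter, 2.64 and 2.49. Ttll8 had 1.59 on day 2 and 2.24 in controls (2.12 and 2.21 without the batch term). Mfsd2a had 2.05 and 2.06, and without the batch term it peaked at ZT13.2 on day 2 and ZT10.9 in controls. In the list of clock output genes, 25 of 26 were strongly rhythmic in controls and 24 of these were called on day 2, with a median amplitude of 1.18 on day 2 and 1.17 in controls. The gene that was not called was Tfrc, the transferrin receptor, with an amplitude of 0.293 on day 2 and 0.754 in controls (adjusted p of the change 0.613).

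Peak times were close in both arms. Among the 587 genes strongly rhythmic in both, the peak on day 2 came a median of 0.251 h later than in controls (quartiles −0.451 and 1.14 h), 337 peaked later and 250 earlier, and 495 (84.3%) lay within 2 h. Of the 16 strongly rhythmic clock genes, 15 lay within 1 h; the exception was Bhlhe41, which peaked 1.17 h later on day 2.

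How large the rhythms of the genome were on day 2 depended on which mice chose the genes. For the 1100 genes chosen in controls the median log2 ratio of amplitudes was −0.16 (715 lower, 65%), with a median amplitude of 0.614 on day 2 and 0.682 in controls. With same-batch controls only, where fewer control mice chose the genes (1179), it was −0.438 (80.7% lower). For the 863 genes chosen on day 2 it was 0.21 (248 lower, 28.7%), and for the 587 strongly rhythmic in both it was 0.05. Over all genes it was 0.04 (47.8% lower). An amplitude is a length, which noise raises on average, and more so on day 2, with fewer mice at each time. These ratios were not corrected for that. Choosing genes in either arm favours those whose amplitude was overestimated there, so a further choice was made, after these values had been seen, in liver libraries of neither arm: deprived mice at T36, T42, T72, T78, T192 and T198, in which 785 genes were strongly rhythmic. They are not undisturbed mice either, since T36 and T42 lie on the first recovery day. Their values also carried the batch term, which rested on the controls, because every deprived group lay in a single batch. The choice of genes and direction in those mice was therefore not independent of the controls. Measured along the direction of those mice, the 785 genes had a median amplitude of 0.549 on day 2 and 0.607 in controls, and the median difference was −0.05 (454 lower, 57.8%). Leaving out each of the 35 libraries in turn gave a jackknife standard error of 0.04, so the difference was little larger than its error. For the same genes it was −0.04 with same-batch controls and −0.01 without the batch term.

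**Figure D3:**
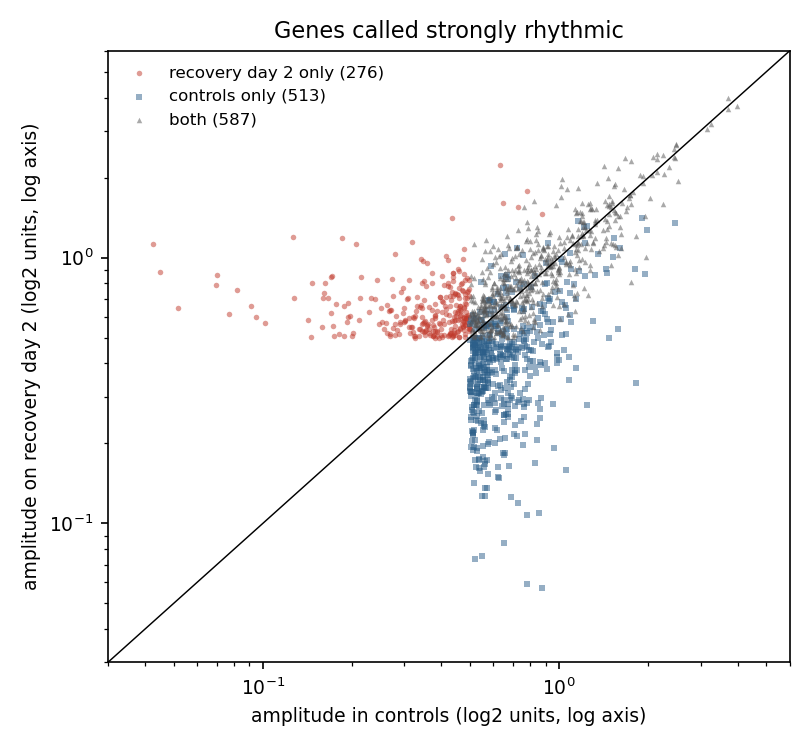
Amplitude on recovery day 2 against amplitude in controls, both in log2 units on log axes, for genes strongly rhythmic on day 2 only (276, red circles), in controls only (513, blue squares) or in both (587, grey triangles), with the line of equality. The genes of both arms lie around the line, all 276 genes of day 2 only lie above it, and 467 of the 513 genes of controls only lie below it.

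Amplitudes were also described by time of peak, with no test between times. Among the 785 genes chosen in the other mice, those peaking at ZT9 to 12 (n = 77) had a median amplitude of 0.81 on day 2 and 0.775 in controls, and those peaking at ZT21 to 24 (n = 181) had 0.656 and 0.61. The medians of the arms were closest at ZT6 to 9 (n = 76), with 0.628 and 0.63, and at ZT18 to 21 (n = 92), with 0.621 and 0.622. Gene by gene, the median difference was −0.0306 at ZT6 to 9 (42 lower) and −0.0839 at ZT18 to 21 (54 lower). Genes peaking at ZT3 to 6 (n = 70) had 0.187 on day 2 and 0.413 in controls, and 57 of the 70 were lower. In that window the median difference was −0.159, against −0.147 with same-batch controls and −0.00546 without the batch term. Genes peaking at ZT15 to 18 (n = 70) had 0.382 on day 2 and 0.625 in controls, and again 57 of 70 were lower. The median difference there was −0.37, against −0.32 with same-batch controls and −0.21 without the batch term. Over both of these windows the median difference was −0.18 (114 of 140 lower), with a jackknife standard error over libraries of 0.12, so it was under 2 standard errors. In the other windows together 340 of 645 genes were lower, with a median difference of −0.025. Among these the window of ZT0 to 3 (n = 103) had 0.399 on day 2 and 0.505 in controls, with 70 genes lower and a median difference of −0.124 (−0.152 with same-batch controls, −0.0242 without the batch term). The window of ZT12 to 15 (n = 116) had 0.576 on day 2 and 0.629 in controls, with 69 genes lower. Its median difference was −0.0473 (−0.0851 with same-batch controls, −0.0197 without the batch term).

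The line from ZT3 to ZT15 is the one along which the day 2 livers also changed batch, and batch and rhythm cannot be fully told apart there. The genes and directions taken from the other mice rest on the same batch term, also where amplitudes are given without it. With same-batch controls alone, the medians of the 2 windows together were 0.391 on day 2 and 0.607 in controls, and the median difference was −0.19. Without the batch term and for the same genes they were 0.382 and 0.508, with a median difference of −0.093. Genes of the 2 windows made up 61 of the 863 strongly rhythmic genes on day 2 (7.07%) and 206 of the 1100 in controls (18.7%), and 140 of the 785 in the other mice (17.8%). The shares were 10.6% on day 2 and 25.4% in controls with same-batch controls, and 10.2% and 18.5% without the batch term. The root mean square of ZT6 minus ZT18 over the 785 genes was 0.966 on day 2 and 1.15 in controls, whereas that of ZT0 minus ZT12 was 1.52 on day 2 and 1.42 in controls. With same-batch controls they were 1.05 on day 2 and 1.26 in controls for ZT6 minus ZT18, and 1.46 on day 2 and 1.47 in controls for ZT0 minus ZT12.

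**Figure D4:**
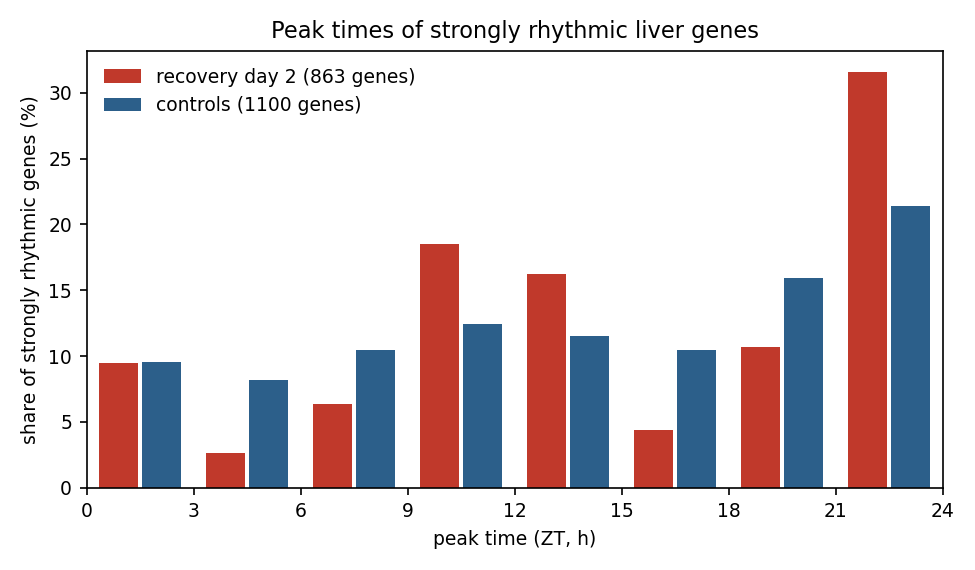
Share of strongly rhythmic genes, in percent of each arm's set, by peak time in windows of 3 h, with 863 genes on recovery day 2 (red) and 1100 in controls (blue). On day 2, 31.6% peaked at ZT21 to 24 and 2.67% at ZT3 to 6, and in controls 21.4% and 8.18%. With same-batch controls the shares were 29.1% and 5.05% on day 2, and 16.8% and 12.1% in controls.

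**Figure D5:**
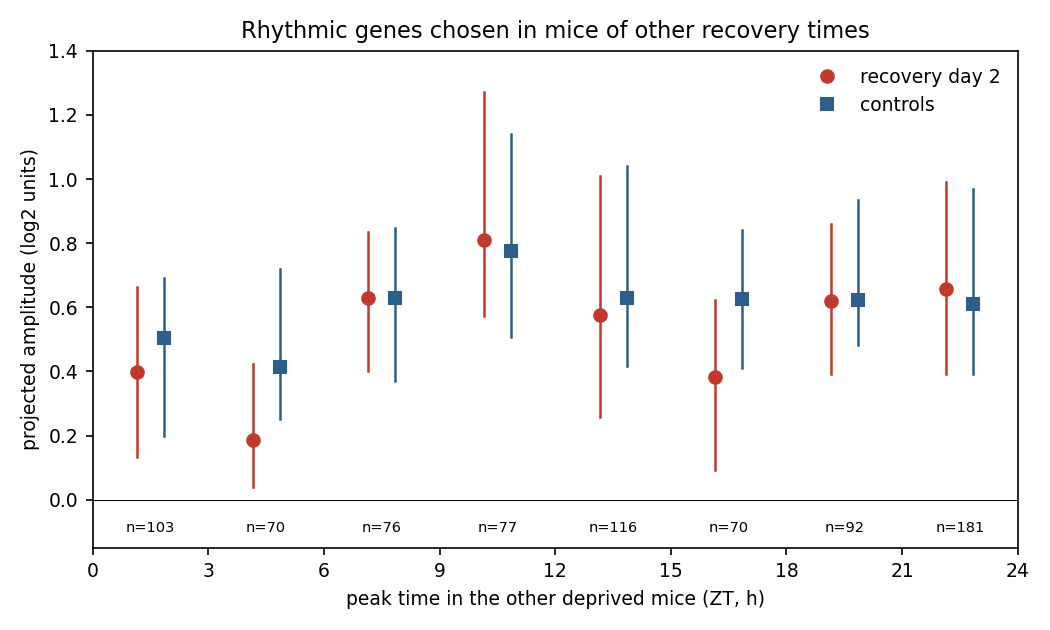
Median amplitude (log2 units, along the direction of the other deprived mice) of the 785 genes chosen in those mice, by their peak time there in windows of 3 h, with recovery day 2 as red circles, controls as blue squares and bars spanning the interquartile range over genes. The medians are lowest on day 2 at ZT3 to 6 and ZT15 to 18, with ZT0 to 3 next (0.399). The medians of the arms lie closest together at ZT6 to 9 (0.628 on day 2 and 0.63 in controls) and ZT18 to 21 (0.621 and 0.622). Gene by gene, the median difference at ZT18 to 21 was −0.0839.

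Within the 2 windows genes behaved unevenly. Serpina5, which encodes the protein C inhibitor (chromosome 12, 104101113 to 104106137, plus strand), had values of 0.17, −1.68 and −0.40 log2 CPM at T48, −1.23, −0.67 and −0.60 at T54, −0.03, 0.80 and 0.70 at T60, and 0.46, 0.57 and −0.22 at T66. In controls it had −1.72, −0.92 and −0.47 (lowest, median, highest) at ZT0, −3.69, −1.09 and −0.66 at ZT6, −0.07, 0.96 and 1.99 at ZT12, and 0.28, 1.24 and 2.79 at ZT18. The arms overlapped at all 4 times, at low levels, while the amplitude was 0.338 on day 2 and 1.81 in controls (difference −1.48 ± 0.42, SE, along the control direction; adjusted p of the rhythm change 0.613). Serpina5 was not called rhythmic on day 2 (adjusted p = 0.766), and its day 2 amplitude changed with the handling of batch: it was 0.788 without the term (1.79 in controls) and 0.728 with same-batch controls (2.45 in controls). Nat8f5, of an acetyltransferase family whose near-identical members may share reads, had 0.811 on day 2 and 1.75 in controls (adjusted p = 0.498), and its neighbour in sequence Nat8f6 0.871 and 1.94 (0.635). Cyp2c40, a cytochrome P450 with close copies, had 0.70 on day 2 and 0.932 in controls but was not called rhythmic on day 2 (adjusted p = 0.556), and without the batch term its day 2 amplitude was 0.165. Along the direction of the other mice its sign was reversed, with −0.70 on day 2 and 0.75 in controls. Erbb4, a receptor tyrosine kinase, had 1.55 on day 2 and 1.5 in controls. Of the 20 genes with the largest amplitude in the other mice in these windows, Tsku, a secreted protein, had 1.12 on day 2 and 1.54 in controls, Tnnc1, a troponin, 1.43 and 1.95, and Lingo4 1.21 and 1.81; none passed the test.

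Metabolic and stress lists were described by their counts, since none of their members passed the test of a changed rhythm. The members were chosen for the tissue with earlier results of these data known. Chaperones of the endoplasmic reticulum, which fold secreted proteins, had the most members with an unadjusted p under 0.05 for the rhythm, 7 of 23, where all genes gave 6.82%. All 17 members that were rhythmic in both arms peaked later on day 2, by a median of 3.21 h (0.623 to 5.23 h), while all 2317 genes rhythmic in both arms had a median of 0.395 h and 60.6% were later. With same-batch controls the median of the same 17 was 4.02 h later and 16 were later, and without the batch term it was 2.35 h and 17. The control T18N7 was the highest ZT18 control for 12 of the 17 genes, T54S2 the highest at T54 for 12, and T48S4 the highest at T48 for all 17. Fits without these libraries were added after the data had been seen. Without T48S4 the median was 3.17 h with 17 later, and 5 of 23 members had an unadjusted p under 0.05. Without T18N7, or without T54S2, the median was 2.64 h with 17 later, and 3 of 23 members had an unadjusted p under 0.05. Without both T18N7 and T54S2 it was 2.05 h with 16 later, and 0 of 23 members by limma had an unadjusted p under 0.05. Over all 23 the median amplitude was 0.46 on day 2 and 0.348 in controls, whereas the median difference along the control direction, which a later peak lowers, was −0.13.

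Pdia3, a protein disulfide isomerase and the member with the lowest p, peaked at ZT0.809 on day 2 and at ZT19.6 in controls (adjusted p = 0.58). Its levels were 8.96, 9.04 and 9.46 log2 CPM at T48, 8.82, 9.50 and 8.93 at T54, 8.65, 8.82 and 8.50 at T60, and 9.06, 9.20 and 9.02 at T66. Controls had 8.85, 8.99 and 9.19 (lowest, median, highest) at ZT0, 8.60, 8.65 and 8.87 at ZT6, 8.33, 8.79 and 9.01 at ZT12, and 9.19, 9.35 and 9.80 at ZT18. The highest controls were those of ZT18, and on day 2 the livers T48S4 and T54S2 were highest, with overlap of the arms at every time. Hspa5 (BiP), the main chaperone of the compartment, named after its values were seen, peaked at ZT0.0095 on day 2 and ZT20.5 in controls (adjusted p = 0.785). Hsp90b1 peaked at ZT1.51 on day 2 and ZT20.3 in controls, Pdia6 at ZT1.5 and ZT20.9, and Sdf2l1 at ZT0.148 and ZT21.1. Without the batch term Hsp90b1 and Pdia6 were not called rhythmic on day 2 (F test, adjusted p = 0.0888 and 0.0869). Their day 2 amplitudes were then 0.297 and 0.253, against 0.471 and 0.401 with the term. Pdia3, Hspa5 and Sdf2l1 were still called.

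Of 25 heat shock and chaperone genes outside the endoplasmic reticulum, mostly cytosolic, 4 had an unadjusted p under 0.05 for the rhythm, where all genes gave 6.82%. They were Hspe1 and Hspd1, which form the mitochondrial chaperonin, Hspa1a and the small heat shock gene Cryab. The 12 rhythmic in both arms peaked a median of 1.23 h later on day 2 (11 of 12 later), 1.66 h with same-batch controls and 0.879 h without the batch term. Hspe1 had an amplitude of 0.186 on day 2 and 0.436 in controls (difference −0.33 ± 0.08, SE, adjusted p of the rhythm change 0.555). Its ZT18 values were 6.44, 6.38 and 6.29 log2 CPM on day 2, all below the control range of 6.64 to 6.89. Hspa1a, an inducible heat shock gene whose reads are nearly those of its copy Hspa1b, had 1.17 on day 2 and 0.627 in controls. It peaked at ZT18.3 and ZT8.07 and was called rhythmic in neither arm.

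Of 24 genes of bile acid and sterol transport 6 had an unadjusted p under 0.05 for the rhythm, where all genes gave 6.82%. The median amplitude of the list was 0.237 on day 2 and 0.342 in controls. Cyp7a1, which catalyses the limiting step from cholesterol to bile acids, had 0.611 on day 2 and 1.09 in controls and peaked at ZT20.0 and ZT15.1 (adjusted p = 0.617). It was not called rhythmic on day 2 (F test, adjusted p = 0.183). Without the batch term its day 2 amplitude was 0.794 and its day 2 peak ZT18.2. Its levels at ZT12 were 7.99, 7.37 and 7.76 log2 CPM on day 2 and 8.53 ± 0.77 in controls (SD, n = 5), and at ZT0 they were 8.40, 7.86 and 7.12 on day 2 and 7.10 ± 0.39 in controls (SD, n = 8). Cyp8b1, which directs synthesis to cholic acid, went the other way, with 1.08 on day 2 and 0.62 in controls (adjusted p = 0.613). Its levels at ZT12 were 7.31, 5.95 (T60S3) and 7.14 log2 CPM on day 2, and 7.29 to 8.06 in controls. Cyp7b1, of the alternative pathway, had 0.50 on day 2 and 0.233 in controls, and Abcc3, an exporter of bile acid conjugates, 0.114 and 0.285. Neither Cyp7b1 nor Abcc3 was called rhythmic on day 2, and without the batch term their day 2 amplitudes were 0.333 and 0.0139. Cyp7b1 peaked at ZT5.07 on day 2 and ZT15.3 in controls, and Abcc3 at ZT15.1 and ZT6.2.

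Lipogenic genes had more members with a low unadjusted p for level (10 of 22) than for rhythm (2 of 22), which was not tested as a difference. For rhythm all genes gave 6.82%. Over the day 20 of 22 had a higher mean on day 2, by a median log2 difference of 0.21, and 10 had an unadjusted p under 0.05, all higher, where 4.52% of all genes were higher at that p and the median of all genes was 0.0014. None of the 22 passed the adjusted threshold (lowest adjusted p = 0.277); with same-batch controls the median was 0.289 and 11 had an unadjusted p under 0.05, and without the batch term 0.214 and 10. Me1 (malic enzyme), Fasn (fatty acid synthase) and Elovl6 (a fatty acid elongase) were named after their values were seen. The log2 difference in mean level was 0.43 ± 0.12 for Me1, 0.54 ± 0.21 for Fasn and 0.36 ± 0.14 for Elovl6 (SE), and the lowest adjusted p was that of Me1. Elovl6 had an amplitude of 0.905 on day 2 and 1.13 in controls. Thrsp, a regulator of lipogenesis, read 9.36, 8.23 and 8.24 log2 CPM at T48, 8.34, 8.11 and 9.89 at T54, 10.31, 11.44 and 10.35 at T60, and 9.29, 10.03 and 9.76 at T66. Controls had 6.72, 7.45 and 8.10 (lowest, median, highest) at ZT0, 5.82, 7.52 and 8.38 at ZT6, 9.78, 10.39 and 11.30 at ZT12, and 9.37, 9.77 and 9.87 at ZT18. All 3 livers at T48 lay above the 8 controls of ZT0, and the other times overlapped. Its amplitude was 1.01 on day 2 and 1.97 in controls (difference −1 ± 0.40, SE, adjusted p of the rhythm change 0.715). Acly, ATP citrate lyase, had an amplitude of 0.282 on day 2 and 0.759 in controls, and Elovl5 0.585 and 0.661.

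In the remaining lists no member passed for rhythm or mean level. Pck1, the key enzyme of gluconeogenesis, had an amplitude of 1.59 on day 2 and 1.25 in controls and peaked at ZT11.1 and ZT9.07. Cpt1a, which admits fatty acids to the mitochondrion, had 0.576 and 0.663, Angptl4, an inhibitor of lipoprotein lipase, 1.14 and 1.01, and Ddc, an amino acid decarboxylase, 0.958 and 0.97. Dusp1, a phosphatase induced by glucocorticoids, had 1.63 on day 2 and 0.826 in controls (adjusted p = 0.613); at ZT12 its values were 5.96, 6.10 and 5.16 log2 CPM on day 2, all above the control range of 4.43 to 5.09. Ddit4, another glucocorticoid target, had 0.771 and 1.21. The fibrinogen genes Fga and Fgb, acute phase genes of hepatocytes, had 0.0999 and 0.109 on day 2 and 0.444 and 0.314 in controls. Without the batch term Fga had 0.234 on day 2 and 0.436 in controls, and the ZT0 control T0N3 stood above its group for both genes, at 13.25 for Fga and 13.1 for Fgb. Of 23 acute phase members 6 had a lower mean on day 2 and 1 a higher one at an unadjusted p under 0.05, where 4.53% of all genes were lower and 4.52% higher.

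The mean level over the 4 times differed for 3 of 13338 genes (0.0225%) by limma, against 1207 at an unadjusted p under 0.05. Apoa4, an apolipoprotein of triglyceride-rich particles (chromosome 9, 46240696 to 46243459, plus strand), was higher on day 2. It read 7.81, 7.67 and 10.51 log2 CPM at T48, 6.82, 7.75 and 6.85 at T54, 7.54, 7.35 and 6.59 at T60, and 7.42, 7.31 and 7.53 at T66. Controls had 6.22, 6.55 and 7.19 (lowest, median, highest) at ZT0, 6.41, 6.63 and 6.96 at ZT6, 6.06, 6.46 and 7.11 at ZT12, and 6.16, 6.38 and 7.27 at ZT18. All livers at T48 and at T66 lay above the controls of their time, and the groups overlapped at the other times. The mean rose by 0.98 ± 0.17 (log2, SE, adjusted p = 0.00485) and the T48 level by 2.19 ± 0.35 (adjusted p = 0.00119). T48S4 carried much of the difference at T48: without it that difference was 1.26 and no longer called (adjusted p = 0.417). The T48 call was also lost with same-batch controls (2.31, adjusted p = 0.163), while the mean was still called without any single library (highest adjusted p 0.0394).

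Raet1d, a ligand of the natural killer cell receptor NKG2D (chromosome 10, 22360552 to 22374139, plus strand), was lower on day 2, by −0.86 ± 0.15 (log2, SE, adjusted p = 0.00485). Its values were 1.23, 1.35 and 1.27 log2 CPM at T48, 2.24, 0.48 and 1.25 at T54, 1.27, 1.64 and 1.33 at T60, and 0.86, 0.92 and 0.61 at T66, against means of 2.55 ± 0.62, 2.71 ± 0.19, 1.88 ± 0.60 and 0.96 ± 0.36 at ZT0, ZT6, ZT12 and ZT18 in controls (SD, n = 8, 5, 5 and 5). All 3 deprived livers were below every control at ZT6, the arms met at 1.35 at ZT0, and they overlapped at ZT12 and ZT18. Pard3b, a cell polarity gene (chromosome 1, 61638824 to 62642284, plus strand), was higher on day 2, by 0.42 ± 0.08 (adjusted p = 0.0251), with 3.59, 3.48 and 3.78 log2 CPM at T48 against 3.01 ± 0.10 at ZT0 in controls (SD, n = 8), with no overlap there or at ZT6. It lost its call in 8 of the 35 fits that left out 1 library. None of the 3 was called with same-batch controls alone or in a fit of the 35 libraries alone.

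By single time, 2 genes were called at T48 (0.015%) by limma and 0 at T54, T60 and T66 (0% each); at an unadjusted p under 0.05 there were 1126, 983, 446 and 1033. Beside Apoa4, the gene called at T48 was Meaf6, a subunit of histone acetyltransferase complexes, with 3.05, 3.22 and 2.73 log2 CPM at T48 and 3.49 ± 0.18 at ZT0 in controls (SD, n = 8). It fell by 0.62 ± 0.12 (log2, SE, adjusted p = 0.031), the groups touched at 3.22, and the call was lost in 8 of the 35 fits that left out a library, at worst without T48S4 (adjusted p = 0.641). It was also lost without the batch term (−0.493, adjusted p = 0.439) and with same-batch controls (adjusted p = 0.16).

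The cortex of the same mice served as a second tissue, with its own normalisation. There 2 of 17108 genes (0.0117%) had a changed rhythm by limma, with 2723 at an unadjusted p under 0.05 (15.9%, against 6.82% in liver), and 4 of 287 strongly rhythmic genes had a lower amplitude on day 2. The cortex fit lacked the unlabelled factor of the liver fit (described below), so these shares come from unlike fits. Without that factor the liver fit gave 1241 of 13338 genes at an unadjusted p under 0.05. The median log2 ratio of amplitudes was −0.39 in the 287 cortex genes chosen in controls and 0.52 in the 313 chosen on day 2, so the dependence on the choice of genes was seen there too. Tested on the difference of liver and cortex within each mouse, the change of rhythm differed between the tissues for 0 of 12194 genes (0%; lowest adjusted p = 0.173, and 1169 genes, or 9.59%, at an unadjusted p under 0.05). In this fit no difference between the tissues in the change of rhythm was therefore shown for any gene. The day 2 rhythms themselves were not tested against each other between the tissues.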

How the data were processed

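The deposited values are log2 CPM, as the sums of their antilogs show (922500 to 1070000 CPM per library in the 35 libraries); reads per library are unknown, so no counting interval is given. Reads were handled with fastp, STAR 2.7.0e and edgeR on GRCm38 (mm10), per the submitters' processing notes, which state neither order nor settings. Nothing used here says how reads shared between genes were counted. The liver table holds 13373 entries, of which 35 without a gene name (0.0337% of the signal) were left out. Pairs of libraries of 1 group differed by 0.329 to 0.588 log2 units (root mean square over genes), so none was a copy. Each library carries its own animal code.

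Log2 values were tested as deposited with limma 3.58.1 in R 4.3.3 (lmFit, eBayes with a mean trend). A single fit took all 62 liver libraries, with 17 groups, batch from the labels and a 3-level unlabelled factor (50, 8 and 4 libraries) whose 2 dimensions had no variance left in the deposited table (42 residual degrees of freedom). The factor was read within groups, against the commonest level of each, so a level shared by a whole group would not be seen. Tests were two-sided, adjusted by Benjamini-Hochberg over 13338 genes, threshold 0.05. Scripts were tested on simulated data. The members, gene lists and tests were chosen with earlier results of these data known. Named were core clock genes (some are not reported here), up to 4 members of a list by lowest p, genes past a threshold, the 20 largest control amplitudes and the 20 largest amplitudes of the other mice in 2 windows, the last 2 rules and single genes so described being added after the values were seen. Gene positions are from GENCODE M21 (GRCm38). Figures were drawn with matplotlib. Alternatives covered batch, the factor, same-batch controls, the libraries in the fit, the prior trend, a filter, a pseudocount of 1 CPM, centring, harmonic regression with the ZT3 controls and each library left out; named genes, gene lists and peak windows were also recomputed without the batch term and with same-batch controls, and 2 lists without single libraries, after the data had been seen.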

Additional observations from a re-analysis of the deposited data

Results flagged for a closer look

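Of 272 sets of control libraries of 1 gene at 1 time, 22 had a highest or lowest library set apart from the rest by more than a rule for single outlying values allows; chance flags about 1 in 20 such sets. Only control groups have enough libraries for the rule, so the 3 deprived livers of a time were not examined in this way. All values are log2 CPM, each with the nearest value of its group.

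At ZT0 the library T0N5 stood apart for 4 genes: Cpt1a at 8.47 (next 8.12), Nat8f5 at 2.73 (next 3.93), Nat8f6 at −1.45 (next 0.11) and Rapgefl1 at −1.74 (next −0.99). The library T0N3 stood apart for 5 genes, Bhlhe41 at −0.29 (next −1.41), Clock at 6.35 (next 6.69), Fga at 13.25 (next 12.6), Fgb at 13.1 (next 12.33) and Hectd2os at 5.3 (next 6.04). Arntl was at 5.08 in T0N9 (next 5.4).

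At ZT6 Nr1d2 was at 6.44 (next 7.06) and Hspa5 at 9.93 (next 9.22) in T6N3, and Dusp1 at 3.64 (next 2.84) in T6N2. At ZT12 Per1 was at 5.15 (next 5.76) and Mfsd2a at 4.75 (next 5.79) in T12N5, Tfrc at 6.54 (next 5.96) in T12N6, and Lingo4 at 2.7 (next 1.72) in T12N1. At ZT18 Mfsd2a was at 1.41 (next 2.3) in T18N8, Dusp1 at 4.83 (next 4.05) in T18N4, Tfrc at 4.84 (next 5.97) in T18N2, and Pard3b at 1.6 (next 2.43) and Fasn at 10.01 (next 10.43) in T18N7. The share these libraries had in any difference from day 2 was not tested beyond the fits that leave out 1 library.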

How the results depend on the processing

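Across all alternatives for batch, factor, libraries in the fit, prior trend, filter, pseudocount, centring and harmonic regression, the number of genes with a changed rhythm was 0 or 1, and 14 to 17 clock genes were strongly rhythmic in controls and called on day 2, the 14 where genes of low mean were left out. Without the batch term 1 gene was called for rhythm change, 1 for amplitude, 5 for mean level, 1 at T48 and 1 for liver minus cortex, and the amplitude difference of genes chosen in other mice was −0.00962. Without the unlabelled factor 1 gene was called for amplitude, 10 for mean level and 1 for liver minus cortex. With same-batch controls 3652 genes were rhythmic in controls, 0 were called for mean level, 0 at T48 and 1 at T60, and the median log2 amplitude ratio was −0.438. Mean level gave 0 calls in the 35 libraries alone, 0 by harmonic regression and 5 without the 20% of genes with the lowest mean. The median ratio was 0.21 for genes chosen on day 2, 0.053 for genes strongly rhythmic in both, −0.0227 for genes chosen in other mice and −0.323 with day 2 projected on the control direction. Leaving out each library in turn gave 0 to 1 gene for rhythm change, 0 to 2 for amplitude, 2 to 8 for mean level, 0 to 4 at T48, 0 to 1 at T54, 0 to 1 at T66 and 0 to 1 for liver minus cortex; the 1 rhythm change, 2 amplitude changes, 1 call at T54 and 1 for liver minus cortex came without T0N5, and the 8 and the 4 without T48S3. The cause was not tested. Harmonic regression gives no level at single times. No paired analysis was possible because each mouse was killed at 1 time, so that no code links a day 2 mouse to a control; liver and cortex of the same mouse were paired only in the comparison of tissues. With 3 deprived mice at each time, only large changes of amplitude could be detected.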
